A study of Homo sapiens with 4 samples.

Results

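Natural antisense RNAs are transcripts read from the strand opposite to a named gene, and by convention they take that gene's symbol with the ending AS and a number. The antisense RNAs described here are names of that form in the deposited gene tables (EPB41L4A-AS1 left out), chosen by their counts, which had to be at least 20 in both control libraries or in both libraries labelled PRMT5 KD. This rule kept 234 of 670 names of that form, out of 29655 gene names in all. Of the 234, 188 had at least 20 counts in all 4 libraries, 34 met the minimum only in control and 12 only with the PRMT5 KD label. Each was set beside its sense gene, the gene named before the hyphen. A sense gene was found among the gene names for all but 3 of the antisense RNAs, HOXA-AS2, HOXD-AS1 and TRG-AS1, whose names point to a gene cluster or locus. GAS6, GRIK1, HIF1A and PAXIP1 each have 2 antisense RNAs, so there were 227 sense genes, of which 205 were tested. At the edge of the rule, BZRAP1-AS1 (20, 24, 8 and 6 counts in control 1, control 2, PRMT5 KD 1 and PRMT5 KD 2), DLEU7-AS1 (20, 25, 4 and 5) and MEIS1-AS3 (20, 23, 26 and 1) were just inside. KCNJ2-AS1 (19, 32, 5 and 6) and ENTPD1-AS1 (11, 18, 19 and 23) were just outside.

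The libraries came from UMSCC74B, an established line of squamous cell carcinoma of the head and neck (HNSCC), grown in DMEM with serum and collected 72 h after shRNA delivery. The 2 control libraries carry the genotype WT and had received control shRNA, and the other 2 are labelled PRMT5 KD and had received shRNA against PRMT5, an arginine methyltransferase. The labels describe plasmids and the methods lentiviral particles, and neither says whether replicates were separate cultures, so the errors below measure only the spread between these libraries, which may be technical. Total RNA and a directional kit were used, but the strand setting of the counting step is not given in the sources used here. Where an antisense RNA and its sense gene share exon bases, which GENCODE 44 shows for 153 of the 220 pairs with a position, their reads may therefore not be told apart.

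Between 52185289 and 65964558 counts per library fell on named genes, and the antisense RNAs took 0.0928% to 0.118% of them. The PRMT5 transcript had 71.1 and 63.4 CPM in control, where CPM are counts scaled by TMM to a common library size, and 106 and 121 with the PRMT5 KD label. It was thus higher, not lower, with the PRMT5 KD label (log2 fold change 0.76, standard error 0.13, edgeR FDR = 0.00318), and all directions below are by the labels. The study describes an immunoblot check of the silencing at the protein level, which is not part of the data used here. Of 7 squamous markers, the keratins KRT5, KRT14 and KRT6A and the epithelial cadherin CDH1 were at or near 0 in all 4 libraries. This goes against the label of the line, whereas DSG3 and TP63 exceeded 1 CPM in each library. TP63 had 4.15 and 4.96 CPM in control and 1.40 and 2.44 with the PRMT5 KD label. KRT17 was low but higher with that label, at 0.893 and 1.20 CPM against 0.0952 and 0.0902. The summed squamous list was 36.9 and 32.5 CPM in control and 17.5 and 24.8 CPM with the PRMT5 KD label, mostly from DSG3. All 4 fibroblast markers exceeded 1 CPM in each library, and their sum was 333 and 404 CPM against 40.7 and 53.9. Of the leukocyte markers, CD14 had 26.1 and 30.1 CPM against 0.859 and 1.51, and PTPRC and CD3E were at or near 0. The 3 endothelial markers summed to 7.60 and 10.6 CPM against 0.808 and 0.373. Ribosomal RNA took 15.3% and 14.2% of counts in control and 26.2% and 18.0% with the PRMT5 KD label. These values move with the groups, and their part in the results below was not tested. In bulk RNA, fewer cells of a type and less RNA per cell cannot be told apart.

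Many human promoters are transcribed in both directions, so that an antisense or upstream RNA starts a short way from the sense start and runs away from it. Other antisense RNAs start inside or beyond the sense gene and cross its body. Most are transcribed by RNA polymerase II, many are poorly spliced and stay in the nucleus, and the nuclear exosome, a 3′ to 5′ RNA-degrading complex, removes a large part of such transcripts. Some antisense RNAs have been reported to raise or lower their sense gene, and many have no known role. PRMT5 makes symmetric dimethylarginine on histones and on splicing proteins, among other targets.

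Some pairs start head to head with a gap between both annotated starts, and that stretch is taken here as their shared promoter region. Promoter activity was not measured in the data used here. The stretch is printed for 6 pairs whose changes are described further on. The letters come from RefSeq (GRCh38.p14) and run 5′ to 3′ on the strand of the antisense RNA, from just after the sense start to just before the antisense start, with both starts as RefSeq has them, which can differ from GENCODE. Capitals mark matches to any of 6 motifs on either strand, which were the TATA box TATAAA, the CCAAT box CCAAT, the GC box GGGCGG, the NRF1 motif, the ETS site CCGGAAGT and the E2F site TTCCCGC.
RNASEH1-AS1, chr2:3558334-3558385, plus strand: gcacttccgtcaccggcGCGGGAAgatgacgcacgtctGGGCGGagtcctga
BOLA3-AS1, chr2:74147913-74147980, plus strand: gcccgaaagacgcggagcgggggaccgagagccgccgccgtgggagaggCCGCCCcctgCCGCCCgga
GAS6-AS2, chr13:113864077-113864176, plus strand: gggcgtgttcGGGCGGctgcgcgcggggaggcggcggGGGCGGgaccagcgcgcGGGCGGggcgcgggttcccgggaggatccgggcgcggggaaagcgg
RAB30-AS1, chr11:83071898-83072065, plus strand: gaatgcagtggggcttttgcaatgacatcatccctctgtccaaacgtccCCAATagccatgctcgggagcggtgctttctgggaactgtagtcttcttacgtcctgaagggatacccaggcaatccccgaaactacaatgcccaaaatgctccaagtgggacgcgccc
PRKAR2A-AS1, chr3:48847875-48847936, plus strand: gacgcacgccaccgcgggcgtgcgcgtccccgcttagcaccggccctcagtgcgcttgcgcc
TPT1-AS1, chr13:45341184-45341344, plus strand: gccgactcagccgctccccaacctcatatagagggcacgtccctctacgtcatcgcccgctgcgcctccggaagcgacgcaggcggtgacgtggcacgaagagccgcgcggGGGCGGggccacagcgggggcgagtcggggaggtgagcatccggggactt
The stretches run from 52 bases at RNASEH1 to 168 at RAB30, and 5 of them have a GC content of 67.3% or more, with 54.2% at RAB30. Over all promoters, the median GC content of stretches of these lengths ran from 58.9% at the RAB30 length to 61.5% at the RNASEH1 length. GC boxes were found at RNASEH1, BOLA3 (2), GAS6 (3) and TPT1. Upstream stretches of the same lengths hold a GC box in 20.5%, 25.3%, 31.3% and 37.6% of all 27305 RefSeq promoters. The RNASEH1 stretch also holds the E2F letters, which 1.15% of promoters hold in the same length, and the RAB30 stretch a CCAAT box (26.0%). The PRKAR2A stretch holds none of the letters searched. No stretch was printed for BAIAP2-AS1 or TMPO-AS1.

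Among the 188 antisense RNAs with at least 20 counts in all 4 libraries, 13 were higher and 34 were lower with the PRMT5 KD label, and their median log2 fold change was -0.24. A call means an edgeR FDR under 0.05 over all 15237 names tested together with a change of 0.5 or more, up or down, on the log2 scale. Of all 14083 names with the same minimum in every library, 43.7% were called, 22.6% higher and 21.1% lower, with a median of 0.03. The antisense RNAs called lower were 18.1% of the 188, near that background, while those called higher were 6.91%. CPM values did not overlap between groups for 137 of the 188 (72.9%), against 78.4% of all such names. Without control 1 the calls were 4 higher and 10 lower, and without control 2 they were 4 and 14, whereas leaving out either PRMT5 KD library gave 15 and 37 or 14 and 39. Of the 47 calls, 12 were kept in all 4 of these fits.

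Antisense RNAs have few reads, so the calls were also set beside those of names with like counts. With a mean of 20 to 100 counts, 12.3% of 81 antisense RNAs were called, against 27.0% of all names in that range. From 100 to 300 counts the shares were close, 40.6% of 64 antisense RNAs against 42.5%. From 300 to 1000 counts they were 29.7% of 37 against 48.1%. Of the 6 with 1000 counts or more, none was called by edgeR or DESeq2 and 1 had an unadjusted p under 0.05, against 45.2% called among all names of that depth. All names with few counts also leaned to lower values. From 20 to 100 counts 7.53% of them were higher and 19.4% lower, with a median log2 fold change of -0.27 against -0.22 for the antisense RNAs, of which 2 were higher and 8 lower. From 100 to 300 counts the shares were 15.7% and 26.8% with a median of -0.19, against 7 higher, 19 lower and a median of -0.36 for the antisense RNAs. From 300 to 1000 counts the medians were 0.08 for all names and -0.16 for the antisense RNAs. The median standard error of the log2 fold change was 0.32 in the lowest range and 0.12 in the highest, and it was similar for all names (0.33 and 0.13).

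**Figure D1:**
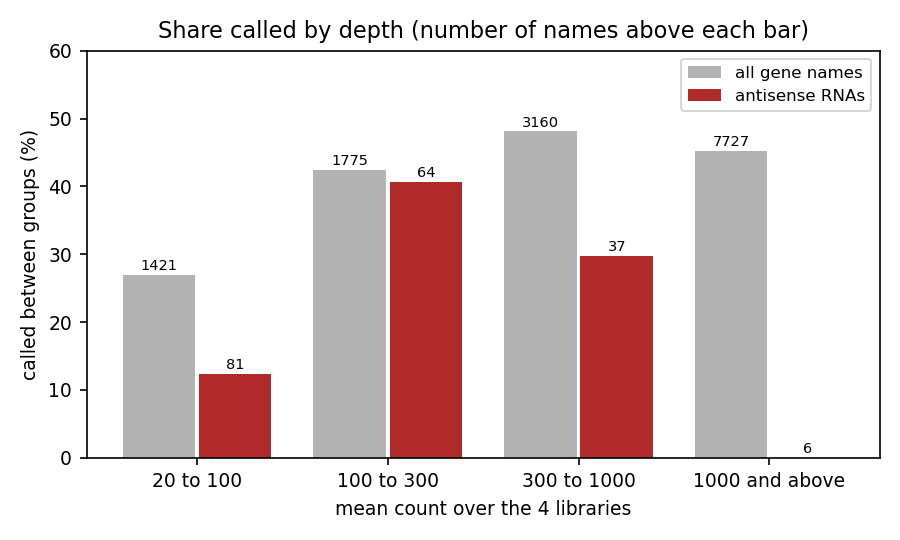
Share of names called between the groups (percent, vertical axis) in 4 ranges of the mean count over the 4 libraries, for all gene names (grey) and for the antisense RNAs (red), with the number of names above each bar. The antisense bar is close to the grey one only from 100 to 300 counts (40.6% against 42.5%), and no antisense RNA was called at 1000 counts or more.

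TMPO-AS1, which runs from 98516422 down to 98512973 on chromosome 12 (GRCh38), had the largest rise. Rises and falls are ranked here among called antisense RNAs without overlap between groups, so the lack of overlap was set by that choice. TMPO-AS1 had 58 and 56 control counts and 344 and 346 with the PRMT5 KD label. That was 0.974 ± 0.186 CPM against 5.83 ± 0.0485 CPM (SD, n = 2 each), with a fitted change of 2.59 on the log2 scale (standard error 0.25, edgeR FDR = 0.000487). TMPO encodes lamina-associated polypeptide 2 of the inner nuclear membrane, and its values are given with the pairs below. It shares exon bases with TMPO-AS1, so part of these counts may belong to TMPO.

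The next rises were about 1 on the log2 scale. TP73-AS1, at the locus of the p53 family factor TP73 and now annotated as the pseudogene GFOD3P, went from 133 and 148 counts to 338 and 350 (log2 fold change 1.29, edgeR FDR = 0.00264). EMC3-AS1, beside a subunit of the ER membrane protein complex, went from 360 and 313 counts to 743 and 729 (1.11, edgeR FDR = 0.00491). Both calls held with any 1 library left out, as did that of TMPO-AS1. RNASEH1-AS1 starts beside RNASEH1, whose enzyme cuts RNA in RNA-DNA hybrids, and had 62 and 74 control counts and 157 and 171 with the PRMT5 KD label (1.27, edgeR FDR = 0.00645). LBX1-AS1, beside a homeobox gene, had 54 and 83 counts against 159 and 123 (1.06, edgeR FDR = 0.0196). For these 2 the call was lost without control 1, where the changes were 1.30 and 0.92, and without control 2, where they were 1.23 and 1.21. USP2-AS1, beside a deubiquitinase gene, was the weakest of the 6, with 41 and 29 counts against 68 and 83 (1.08, edgeR FDR = 0.0466), and its call was lost without control 1, control 2 or PRMT5 KD 2 (0.0664, 0.288 and 0.0765) and was not made by DESeq2 (adjusted p = 0.0753). None of the sense genes RNASEH1 (0.41), EMC3 (0.22), USP2 (0.51) and LBX1 (0.37) was called (edgeR FDR from 0.0481 to 0.318). TP73 had 3, 9, 21 and 11 counts and was not tested.

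The 6 largest falls were deeper, and each call held with any 1 library left out. SNAI3-AS1, on chromosome 16 from 88663298 to 88687282 across the gene of a Snail family repressor, had 188 and 346 control counts and 25 and 20 with the PRMT5 KD label. Its log2 fold change was -3.53 (standard error 0.33, edgeR FDR = 0.000466). DBH-AS1, on chromosome 9 from 133654586 to 133657313 within the gene for dopamine beta-hydroxylase, had 244 and 318 counts against 26 and 42 (-3.03, standard error 0.31, edgeR FDR = 0.00058). The sense genes of both were nearly silent, with at most 6 counts for SNAI3 and 3 for DBH in any library.

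NPPA-AS1, opposite the gene for the atrial natriuretic peptide, fell from 1026 and 990 counts to 220 and 247 (log2 fold change -2.12, standard error 0.19, edgeR FDR = 0.000423). NPPA itself had 0 counts in all 4 libraries, and NPPA-AS1 has no position in the annotation used. TAPT1-AS1 fell from 240 and 191 counts to 39 and 46 (-2.37, edgeR FDR = 0.00165). Its sense gene TAPT1, whose start lies within 1 kb, had 1312 and 1619 counts against 1344 and 1342, and the change of -0.12 did not pass (edgeR FDR = 0.423). The other 2, BOLA3-AS1 (-2.38) and SNRK-AS1 (-1.79), had sense genes that rose, as given below. In these 6, every control count was at least 3-fold above every count with the PRMT5 KD label.

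**Figure D2:**
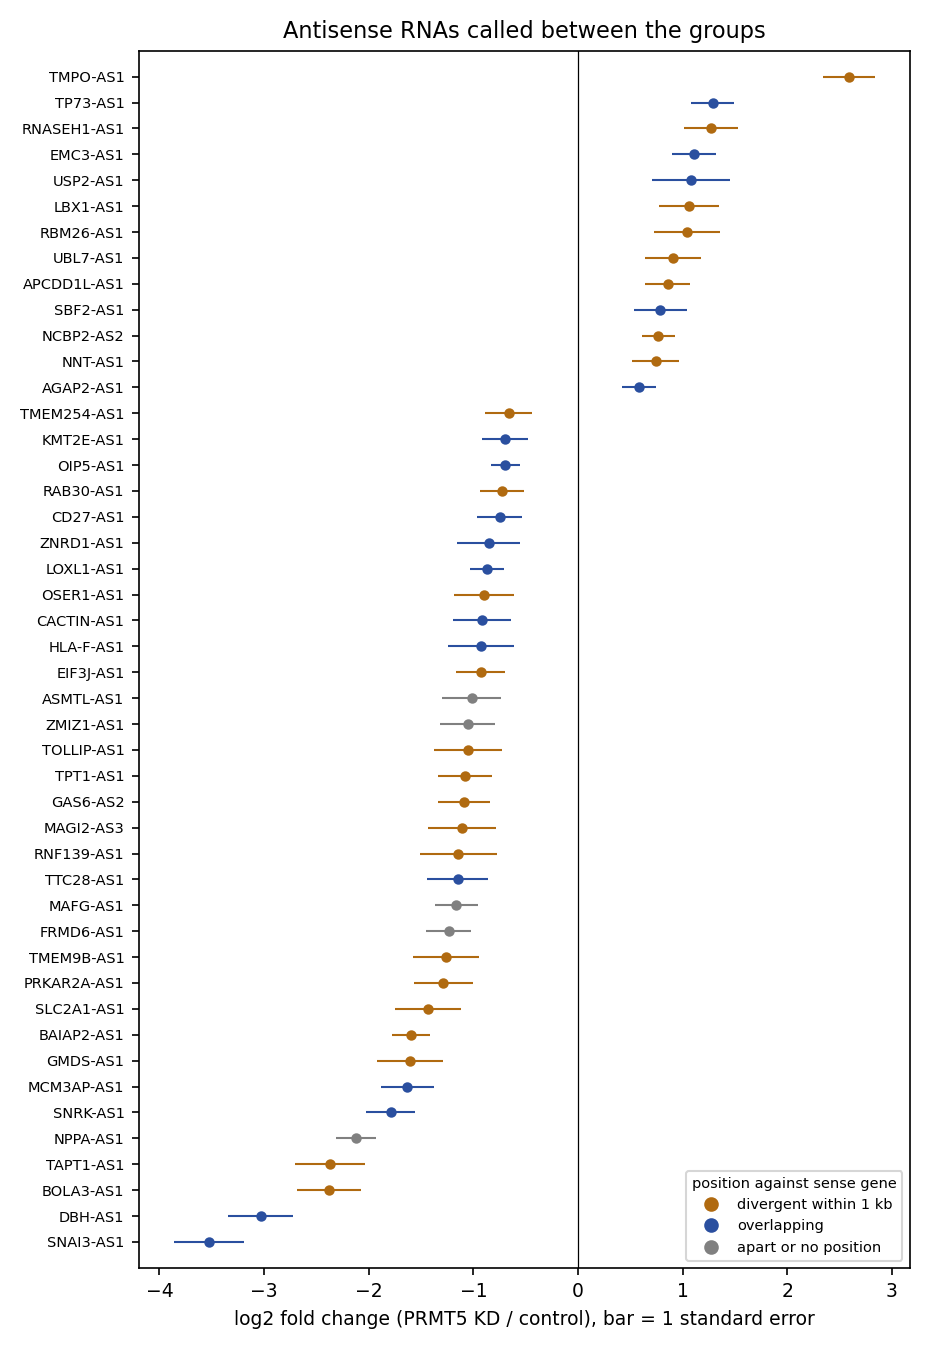
Log2 fold change of 46 of the 47 called antisense RNAs (horizontal axis, libraries labelled PRMT5 KD over control), with bars of 1 standard error and colours for the position against the sense gene. The values run from -3.53 for SNAI3-AS1 to 2.59 for TMPO-AS1, with 33 below 0 and 13 above.

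Without a correction for GC content and exon length, the sense genes were called about as often in each direction. With it, 48 sense genes were higher and 30 lower. Of the 14301 names then fitted, 3533 were higher and 2915 lower. The counts that follow are without it. Like all names tested, the sense genes include some with the minimum in a single group only, such as A2M. Of the 205 sense genes tested, 41 were higher (20%) and 43 lower (21.0%), with a median log2 fold change of 0.08, against 22.3% higher and 22.8% lower of all names tested (45.1% called either way). Without control 2 the counts were 22 and 27, and without control 1 they were 26 and 36. In 169 pairs the antisense RNA had the minimum in all 4 libraries and the sense gene was tested. Both were called in the same direction in 9 pairs, 8 of them lower, and in opposite directions in 8, of which 7 had the antisense RNA lower and the sense gene higher. Exon bases are shared in 5 of the pairs called the same way and in 6 of those called opposite ways. Without control 1 the counts of same and opposite pairs were 2 and 5, without control 2 they were 2 and 4, and with the replicate number as a block 5 and 6. Only the antisense RNA was called in 25 pairs, only the sense gene in 52 and neither in 75. Across these 169 pairs, which share libraries and depth, the log2 fold changes had a Pearson r of 0.05 and a Spearman rho of 0.08, as a description.

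**Figure D3:**
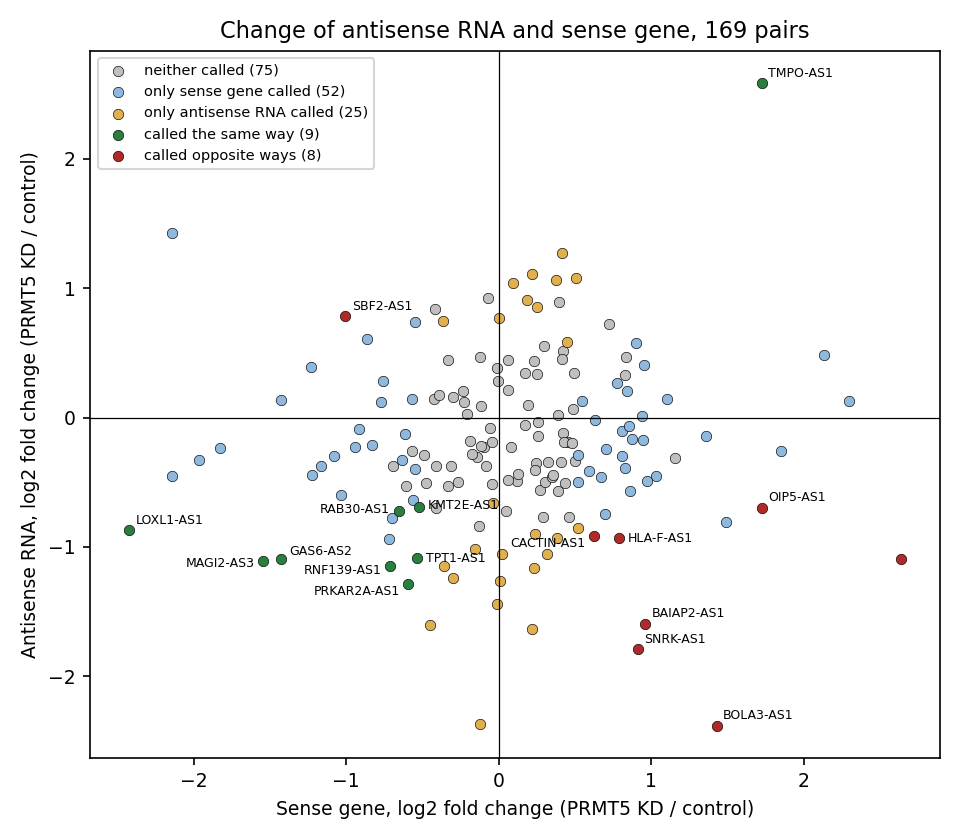
Log2 fold change of the antisense RNA (vertical axis) against that of its sense gene (horizontal axis) for 169 pairs, each point a pair, coloured by which of both was called. The 9 pairs called the same way (green) and 7 of the 8 called opposite ways (red) are named, and the cloud has no visible slope (Pearson r 0.05).

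Among the pairs called in opposite directions, BOLA3 showed the widest split. BOLA3, which acts in mitochondrial iron-sulfur cluster assembly, had 169 and 177 control counts and 453 and 484 with the PRMT5 KD label. That was a rise from 2.94 ± 0.394 to 7.91 ± 0.404 CPM (SD, n = 2 each; log2 fold change 1.43, standard error 0.20, edgeR FDR = 0.00151). BOLA3-AS1, which starts on the other side of the 68 bases printed above and ends at 74151952 on chromosome 2, had 97 and 124 counts against 20 and 22. It fell from 1.86 ± 0.0121 to 0.355 ± 0.0254 CPM (-2.38, standard error 0.31, edgeR FDR = 0.00121). For BOLA3 and BOLA3-AS1 both calls held with any 1 library left out.

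BAIAP2 and SNRK held their split in every fit that left out 1 library. BAIAP2, an adaptor between membrane and actin, rose from 999 and 1415 counts to 2450 and 2191 (log2 fold change 0.96, edgeR FDR = 0.00144). BAIAP2-AS1, which starts 241 bases away and runs from 81034881 down to 81029130 on chromosome 17, fell from 782 and 1223 counts to 358 and 296 (-1.59, edgeR FDR = 0.000815). SNRK, a kinase related to AMPK, rose from 1219 and 1395 counts to 2239 and 2677 (0.91, edgeR FDR = 0.00233). SNRK-AS1 lies inside the SNRK gene on chromosome 3, from 43346923 to 43352152, and fell from 296 and 310 counts to 89 and 87 (-1.79, edgeR FDR = 0.00129).

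OIP5, which helps load the centromeric histone, rose from 207 and 138 counts to 562 and 609 (log2 fold change 1.73, edgeR FDR = 0.00476). OIP5-AS1, on chromosome 15 from 41283958 to 41322392, fell from 891 and 1243 counts to 678 and 626 (-0.70, edgeR FDR = 0.00647), a call lost without control 2 (0.0695). It was also lost once GC content and exon length were corrected for, where the change was -0.30 (edgeR FDR = 0.121). The exons of OIP5-AS1 share bases with NUSAP1 on the same strand, so its counts are uncertain. HLA-F, a non-classical MHC class I gene, rose from 2603 and 3908 counts to 5432 and 5669 (0.79, edgeR FDR = 0.00263). HLA-F-AS1 had 55 and 57 counts against 29 and 30 (-0.93, edgeR FDR = 0.0437), and its call was lost in each of the 4 fits that left out 1 library, with an FDR from 0.0622 to 0.222, and was not made by DESeq2 (adjusted p = 0.123). It too shares exon bases on its strand, with MICE and RPL23AP1.

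CACTIN, a spliceosome-associated protein, rose from 1017 and 1157 counts to 1637 and 1721 (log2 fold change 0.63, edgeR FDR = 0.00700), a call lost without control 2 (0.0786). CACTIN-AS1 had 116 and 186 counts against 71 and 86 (-0.92, edgeR FDR = 0.0300), and lost its call without control 1, control 2 or PRMT5 KD 1 (0.0921, 0.223 and 0.0573). SBF2 was the one pair with the reverse order. SBF2, of the myotubularin-related family, fell from 3872 and 5397 counts to 2285 and 2286 (-1.005, edgeR FDR = 0.00079). With the exon length and GC correction its change was -0.49, short of the fold threshold (edgeR FDR = 0.0128). SBF2-AS1, on chromosome 11 from 9758268 to 9811335, had 168 and 175 counts against 350 and 245 (0.79, edgeR FDR = 0.0374), with the call lost without control 1, control 2 or PRMT5 KD 1 (0.120, 0.229 and 0.122). Of the 8 pairs, both calls held in all 4 such fits for BOLA3, BAIAP2 and SNRK.

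**Figure D4:**
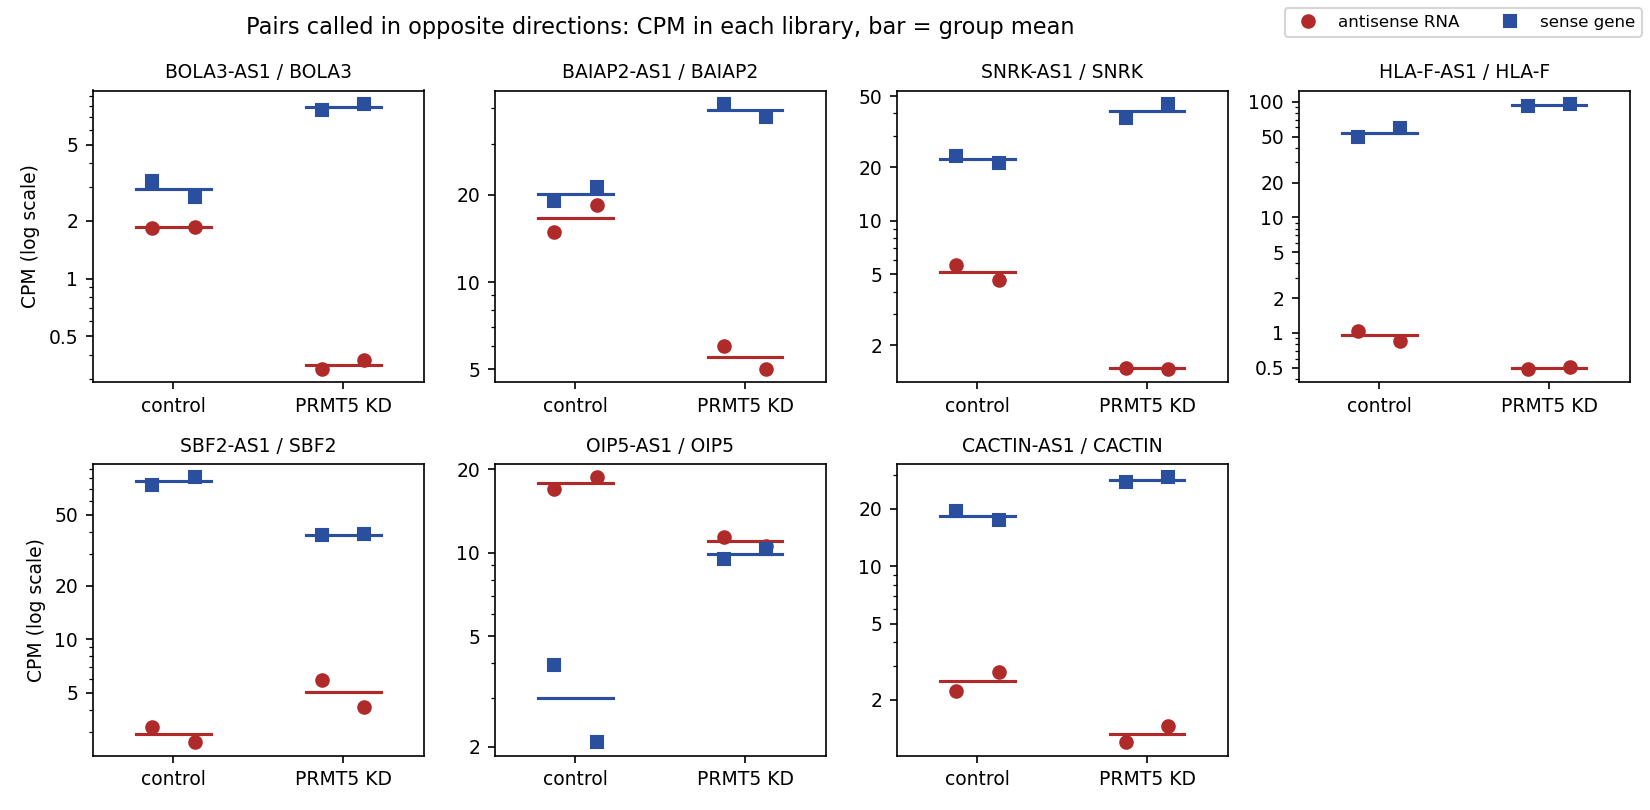
CPM in each library (log axis) for the antisense RNA (circles) and the sense gene (squares) of 7 of the 8 pairs called in opposite directions, with bars at the group means. In 6 panels the circles are lower and the squares higher with the PRMT5 KD label, and in the SBF2 panel the order is reversed.

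Of the pairs called in the same direction, TMPO was the one that rose. TMPO had 3060 and 3191 control counts and 8879 and 11893 with the PRMT5 KD label (log2 fold change 1.72, standard error 0.18, edgeR FDR = 0.000698), beside the 2.59 of TMPO-AS1. TMPO-AS1 starts 843 bases inside TMPO, on the other strand, and shares exon bases with it, so their reads may not be told apart. The log2 ratio of TMPO-AS1 to TMPO counts within a library was -5.71 and -5.82 in control and -4.69 and -5.10 with the PRMT5 KD label, so the antisense RNA was the lower of both throughout.

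Among the falling pairs are genes of the matrix and of a secreted ligand. LOXL1, which cross-links elastin, fell from 8789 and 14789 counts to 2063 and 2239 (log2 fold change -2.42, standard error 0.17, edgeR FDR = 0.000222). LOXL1-AS1, on chromosome 15 from 73908071 to 73928248, fell from 591 and 734 counts to 332 and 391 (-0.87, standard error 0.16, edgeR FDR = 0.00495), and both calls held with any 1 library left out. GAS6, the ligand of the TAM receptor kinases, fell from 10223 and 14217 counts to 4185 and 4794 (-1.43, edgeR FDR = 0.000428). GAS6-AS2, across the 100 bases with 3 GC boxes printed above, fell from 152 and 179 counts to 79 and 76 (-1.09, edgeR FDR = 0.0107), a call lost without control 1 (0.0929) or control 2 (0.0807). The other antisense RNA of this gene, GAS6-AS1, had 81, 76, 70 and 104 counts and did not pass (0.14, edgeR FDR = 0.751).

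In the other falling pairs the antisense call was lost with at least 1 library left out. MAGI2, a scaffold of cell junctions, fell from 204 and 303 counts to 81 and 90 (log2 fold change -1.55, edgeR FDR = 0.00252), and MAGI2-AS3 from 81 and 125 to 38 and 56 (-1.11, edgeR FDR = 0.0264). RNF139, an E3 ligase of the endoplasmic reticulum, fell from 2221 and 2918 counts to 1584 and 1525 (-0.71, edgeR FDR = 0.00255), and RNF139-AS1 from 99 and 99 to 32 and 58 (-1.14, edgeR FDR = 0.0374). MAGI2-AS3 and RNF139-AS1 lost their calls without control 1, control 2 or PRMT5 KD 1 (edgeR FDR from 0.0577 to 0.198), and MAGI2-AS3 also with the exon length and GC correction (-0.78, edgeR FDR = 0.0817). RAB30, a small GTPase of the Golgi, fell from 775 and 1074 counts to 597 and 564 (-0.66, edgeR FDR = 0.00837), and RAB30-AS1 from 307 and 317 to 197 and 183 (-0.72, edgeR FDR = 0.0263). PRKAR2A, a regulatory subunit of protein kinase A, fell from 2349 and 3377 counts to 2058 and 1690 (-0.59, edgeR FDR = 0.0123), and PRKAR2A-AS1 from 182 and 176 to 81 and 67 (-1.29, edgeR FDR = 0.00874). For TPT1, which encodes the translationally controlled tumour protein, 29616 and 45504 counts stood against 27234 and 23869 (-0.53, edgeR FDR = 0.0271), and for TPT1-AS1 160 and 202 against 94 and 76 (-1.08, edgeR FDR = 0.0121). In RAB30, PRKAR2A and TPT1 both the antisense RNA and the sense gene lost the call in at least 1 fit without a control library. TPT1-AS1 and RAB30-AS1 did so without control 1 or control 2, PRKAR2A-AS1 without control 1, RAB30 without control 2, PRKAR2A without control 2 or PRMT5 KD 2, and TPT1 without control 1, control 2 or PRMT5 KD 2. That correction also took RAB30 (-0.46), PRKAR2A (-0.44) and TPT1 (-0.45) below the fold threshold. The ninth pair, KMT2E-AS1 (-0.69) and KMT2E (-0.52), lies outside the rule for named genes and is named here to complete the count.

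**Figure D5:**
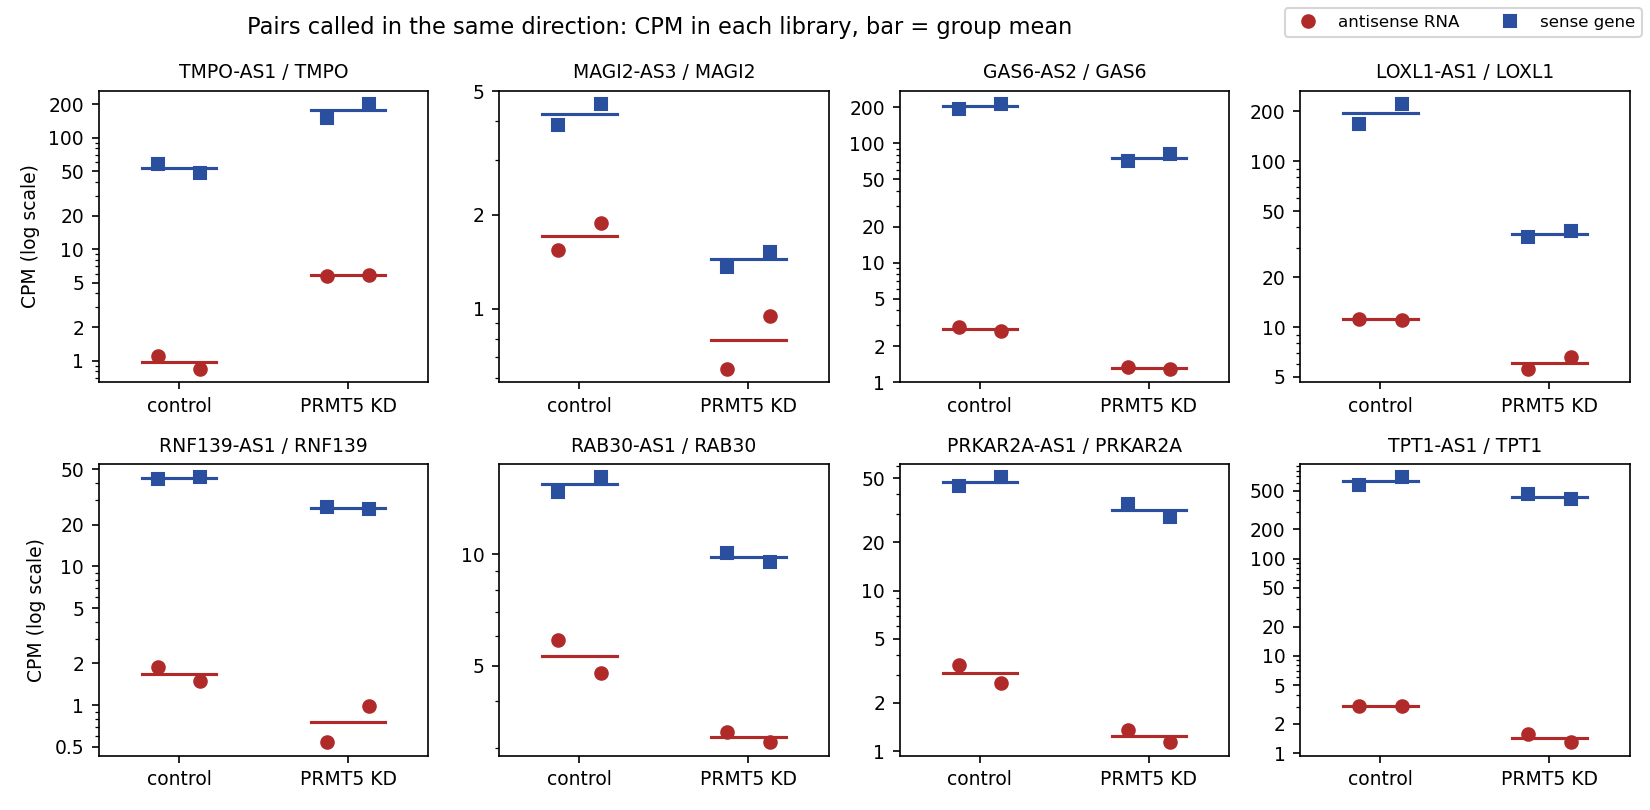
CPM in each library (log axis) for the antisense RNA (circles) and the sense gene (squares) of the 8 named pairs called in the same direction, with bars at the group means. TMPO and TMPO-AS1 are higher with the PRMT5 KD label, and circles and squares are both lower there in the other 7 panels.

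The antisense count was also divided by the sense count within each library, which removes the scaling between libraries. Over the 169 pairs the median log2 ratio of antisense to sense changed by -0.29 from control to the PRMT5 KD label, with a middle range from -0.92 to 0.36. The antisense count was a median of 7.81% of the sense count in control. Among all names, those with 20 to 100 and 100 to 300 counts had median log2 fold changes of -0.27 and -0.19. With 300 to 1000 and 1000 or more counts the medians were 0.08 and 0.10. Whether the ratio change exceeds this lean with depth was not tested. The ratio was lower in both PRMT5 KD libraries than in both controls for 82 pairs and higher for 47, and the groups overlapped for the rest. No such ratio was formed for other genes. For single names, CPM did not overlap between groups for 78.4% of all those with the minimum in every library. BOLA3 had the lowest change, with log2 ratios of -0.80 and -0.51 in control and -4.47 and -4.43 with the PRMT5 KD label. At the other end stood HIF1A-AS2, with -6.53 and -8.71 against -3.95 and -3.30, where control replicates differed from each other by more than 2 units. Per kb of exon, the antisense RNA reached a median of 10.9% of the level of its sense gene over the 163 pairs with annotated lengths, and 19 were above 100%.

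Positions in GENCODE 44 divided the 234 into 91 whose start lay within 1 kb of the sense start on the other strand, 126 that overlapped the sense gene in another way, 3 that lay apart and 14 with no position. Of the head-to-head ones, 81 had the minimum in all 4 libraries, with 8 higher (9.88%) and 17 lower (21.0%) and a median log2 fold change of -0.29. For the overlapping ones it was 96, with 5 higher (5.21%) and 12 lower (12.5%) and a median of -0.23. The called shares of 30.9% and 17.7% both lay below the 43.7% of all names with that minimum. Most antisense RNAs have few counts, and of all names 27.0% were called with 20 to 100 counts and 42.5% with 100 to 300. The depths of the position groups were not compared. Of the head-to-head pairs 7 were called the same way and 3 opposite ways, and of the overlapping pairs 2 and 5. The head-to-head group includes antisense RNAs that start inside the sense gene and share exon bases with it, such as TMPO-AS1. These positions therefore do not separate pairs with shared exon bases from pairs without them. The difference between the positions was not tested. Current annotation calls 38 of the 234 divergent transcripts, 35 of them among the head-to-head ones. For 8 of the names it holds a protein-coding gene, such as CEBPZOS for CEBPZ-AS1 and NCBP2AS2 for NCBP2-AS2, and for 4 a pseudogene.

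Sense genes of 4 kinds were followed by lists chosen with earlier results known. At transcription factor genes, 18 antisense RNAs met the rule and 14 of them had the minimum in all 4 libraries, of which 1, MAFG-AS1, was called (309 and 361 counts against 159 and 140, log2 fold change -1.16, edgeR FDR = 0.00395). For HIF1A, the oxygen-regulated factor, the sense gene fell from 71232 and 89540 counts to 22913 and 13332 (-2.14, edgeR FDR = 0.00145). HIF1A-AS2 had 771 and 214 control counts against 1481 and 1352, and its log2 fold change of 1.43 did not pass (edgeR FDR = 0.101), since the control libraries differed more than 3-fold. It passed without control 1 (2.88, edgeR FDR = 0.00479) and without control 2 (0.70, edgeR FDR = 0.0497), where a single control library is left. HIF1A-AS1 had 41 and 29 counts against 25 and 27 (-0.45, edgeR FDR = 0.367).

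Among the antisense RNAs at cell cycle and genome maintenance genes, TMPO-AS1 was higher and MCM3AP-AS1 was lower. MCM3AP-AS1 had 201 and 254 control counts and 81 and 65 with the PRMT5 KD label (log2 fold change -1.63, edgeR FDR = 0.00245), while MCM3AP, which acts in mRNA export, did not pass (0.22, edgeR FDR = 0.166). KIF9-AS1 (-0.77), SMC5-AS1 (-0.52) and WEE2-AS1 (-0.14) did not pass either (edgeR FDR from 0.0546 to 0.723). At interferon and antigen presentation genes, 1 of 2 was lower, HLA-F-AS1, and TRIM52-AS1 did not pass (-0.37, edgeR FDR = 0.285). At genes of membrane traffic and the cytoskeleton, 4 of 5 had the minimum in all 4 libraries and 1, RAB30-AS1, was lower. These counts are too small to be read against the background of 43.7%.

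The 10 antisense RNAs with the highest mean CPM included none that was called by edgeR, 3 that had an unadjusted p under 0.05 and 1 that DESeq2 called, beside 48.1% called by edgeR among all names with 300 to 1000 counts and 45.2% at 1000 or more. The first was FAM211A-AS1, now named SNHG29, a host of small nucleolar RNAs, with 13989 and 18582 control counts and 12585 and 13434 with the PRMT5 KD label (log2 fold change -0.31, edgeR FDR = 0.0697). FGD5-AS1 had 4432 and 6167 counts against 6275 and 5356 (0.15, edgeR FDR = 0.354), while FGD5, an endothelial guanine nucleotide exchange factor, had at most 2 counts in a library. CEBPZ-AS1 lay at 24.9 ± 0.327 and 25.1 ± 1.76 CPM (SD, n = 2 each), and CEBPZ rose from 2535 and 3205 counts to 5321 and 5645 (0.94, edgeR FDR = 0.000851). C1RL-AS1 had 2603 and 2454 counts against 1500 and 2257 (-0.45, edgeR FDR = 0.164), and C1RL, a complement C1r-like protease, fell from 6980 and 10911 to 3663 and 3872 (-1.22, edgeR FDR = 0.000796). PSMD5-AS1, the pseudogene CUTALP, went from 962 and 1116 to 784 and 690 counts, just short of the fold threshold (-0.4956, edgeR FDR = 0.0253). PSMD5, a proteasome assembly chaperone, rose from 2551 and 3301 to 3916 and 4425 (0.52, edgeR FDR = 0.00995), a call lost without control 1, control 2 or PRMT5 KD 2 and with the exon length and GC correction (0.42). HNRNPU-AS1 (-0.49), CTBP1-AS2 (0.14), THAP9-AS1 (0.44) and GABPB1-AS1 (-0.33) were not called. Neither were their sense genes HNRNPU (0.12), CTBP1 (-0.42), THAP9 (0.23) and GABPB1. GABPB1 lay just short of the fold threshold (0.4966, edgeR FDR = 0.0201). With a count minimum of 10 its change was above that threshold (0.507), and with a minimum of 50 below it (0.473). HNRNPU-AS1 is listed by current RefSeq as an older name of HNRNPU itself, and THAP9-AS1 shares exon bases with SEC31A on its own strand, so both counts are uncertain.

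Antisense RNAs that met the minimum in a single group were set apart by these same counts, so their values are a description without a test. PSMG3-AS1 had 92 and 124 control counts and 31 and 9 with the PRMT5 KD label, and its sense gene PSMG3, a proteasome assembly chaperone, rose from 494 and 604 counts to 930 and 1072 (log2 fold change 0.87, edgeR FDR = 0.00334). A2M-AS1 had 53 and 82 counts against 25 and 15. A2M, the secreted protease inhibitor alpha-2-macroglobulin, had 138 and 187 counts against 0 and 5. It too met the minimum only in control, so no test is given for it. The fitted log2 fold change of A2M rests on those few counts and ran from -4.97 without PRMT5 KD 1 to -10.34 without PRMT5 KD 2. ZNF295-AS1 had 40 and 70 counts against 1 and 0. ZBTB21, the current name of its sense gene, had 2643 and 3355 counts against 3722 and 3201 and did not pass (0.21, edgeR FDR = 0.174).

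TMEM51-AS1 had 40 and 63 control counts against 15 and 14, with no call for TMEM51 (log2 fold change -0.07, edgeR FDR = 0.715). PRRT3-AS1 had 51 and 44 against 30 and 17, and PRRT3 fell from 1019 and 1615 counts to 471 and 453 (-1.49, edgeR FDR = 0.000705). In the other direction, UCKL1-AS1 had 39 and 16 control counts and 82 and 42 with the PRMT5 KD label, so that its groups overlapped after scaling by depth. C1QTNF9B-AS1 had 16 and 19 against 31 and 47, PITRM1-AS1 had 19 and 15 against 29 and 46, PRKCQ-AS1 had 17 and 22 against 29 and 42, and CCDC41-AS1 had 21 and 10 against 37 and 28. Of the sense genes of these 5, UCKL1 (-0.34), PITRM1 (0.20) and CCDC41 (0.17) were not called, and C1QTNF9B and PRKCQ were too low to be tested.

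Factors that degrade or stop antisense and other short-lived nuclear RNAs were followed as the other genes of the pathway. Of 24 listed, all were tested, 10 were higher and 1 was lower, with a median log2 fold change of 0.44, against 22.3% higher and 22.8% lower of all names. Those called numbered from 7 to 12 when 1 library was left out, with the lowest without control 2. Of the 10 EXOSC subunits of the exosome, 8 rose. EXOSC5 had 12.1 and 10.3 CPM in control and 39.1 and 41.0 CPM with the PRMT5 KD label (log2 fold change 1.84, edgeR FDR = 0.000263). EXOSC9 went from 12.7 ± 2.52 to 42.9 ± 2.02 CPM (SD, n = 2 each; 1.75, edgeR FDR = 0.000458), and EXOSC10, the nuclear catalytic subunit, from 54.4 ± 2.96 to 105.5 ± 9.66 CPM (0.96, edgeR FDR = 0.00116). EXOSC2 (1.20), EXOSC8 (1.28), EXOSC1 (0.61), EXOSC3 (0.66) and EXOSC4 (0.63) rose too, and so did the cofactors MPHOSPH6 (1.13) and C1D (0.53). The catalytic subunit DIS3 (-0.19), EXOSC6 (-0.25) and EXOSC7 (0.32) did not pass. ZFC3H1, which feeds polyadenylated nuclear RNAs to the exosome, fell from 198 and 196 CPM to 105 and 108 CPM (-0.89, edgeR FDR = 0.00111). The helicase SKIV2L2 (-0.07) and the adaptor ZCCHC8 (0.495, edgeR FDR = 0.0562) were not called.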

How the data were processed

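The authors deposited one table per library of estimated counts per gene name, not normalized, with decimals in part of the values. Per the labels, the submitters' processing notes name Trim Galore, FastQC, STAR, Salmon and DESeq2 with GRCh38, without versions, whereas the methods of the study describe FeatureCounts on protein-coding genes. The tables list RefSeq-style symbols of all gene kinds. The antisense RNAs, the lists and the named genes were chosen with earlier results of these data known.

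Each table holds 29744 entries. Of these, 28 with a date in place of a gene name were left out (0.150% to 0.161% of counts), and entries with the same name were summed. Counts were rounded to whole numbers. Names with at least 20 counts in both libraries of either group (15237) were compared with the quasi-likelihood test of edgeR 4.0.16 in R 4.3.3, with robust dispersion, TMM factors over all names (0.924 to 1.07) and no replicate term. FDR is the Benjamini-Hochberg adjusted p over all names tested, and calls needed an FDR under 0.05 and a change of 0.5 or more in either direction on the log2 scale. The biological coefficient of variation was 0.156. Antisense RNAs with the minimum in a single group were not tested. With 2 libraries against 2, a permutation test cannot give a two-sided p below 0.333.

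Names were matched to GENCODE 44 by symbol (165 antisense RNAs) or RefSeq synonym (59), and 10 had no match. Log2 ratios within a library used a prior count of 0.5. RefSeq promoters were given for 186 of 234 antisense RNAs (79.5%), so no motif was counted over the set.

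Named were the 10 highest by mean CPM, the 6 largest called rises and falls without overlap between groups, up to 8 pairs called opposite ways and 8 the same way by the smaller change of the pair, up to 5 in each direction with the minimum in a single group, those next to the minimum, PRMT5 and the decay factors. Some names this rule gives are not reported here, although counts over all antisense RNAs include them. Alternatives were DESeq2 1.42.0, other scalings, filters and thresholds, a replicate term, non-robust dispersion, splines (4 degrees of freedom) that correct for GC content and exon length, and fits without each library.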

Additional observations from a re-analysis of the deposited data

How the results depend on the processing

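Each count of calls stayed within 1.5 times its value under DESeq2, total counts alone, TMM on protein-coding genes, no filter, filterByExpr, the RPKM filter, a count minimum of 10 and non-robust dispersion. The exceptions under other settings follow, and their cause was not tested beyond what a setting's construction shows. A count within that range need not be of the same genes. Of the 47 antisense calls, the RPKM filter kept 28, in part because it took antisense RNAs such as BOLA3-AS1 and NPPA-AS1 out of the test, and the other settings just named kept from 42 (DESeq2) to 47. The count minimum of 50 kept 46, the exon length and GC correction 37 (33 with the block added), the replicate block 32, the threshold of 1 kept 30, and fits with 1 library left out from 13 to 39. No sign changed. With a count minimum of 50, which tests fewer genes, 25 sense genes were lower. The exon length and GC correction gave 5 pairs called the same way, and with the replicate block added 5 the same way and 5 opposite ways. A threshold of 1 on the log2 scale gave 7 antisense RNAs higher, 13 sense genes higher, 19 sense genes lower, 3 pairs the same way, 2 opposite ways, 3683 for all gene names called (6873 at 0.5) and 5 decay factors (11 at 0.5), and PRMT5 (0.76) lay below it.

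With 1 library left out, which assumes that the lone library varies like the others, antisense RNAs called higher ranged from 4 to 15 and lower from 10 to 39, sense genes higher from 22 to 45 and lower from 27 to 50, pairs the same way from 2 to 12 and opposite ways from 4 to 10, all gene names called from 3922 to 7090, decay factors from 7 to 12 and PRMT5 from 0.64 to 0.85. The low end of each count came from leaving out a control library. The median ratio change ranged from -0.35 to -0.24.

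Libraries with the same replicate number were not treated as pairs. Across genes, the deviations of same-numbered libraries from their group means had a correlation of -0.115. With 2 libraries per group the second pair only mirrors the first, so this value cannot show whether the libraries were paired. The replicate block gave 10 antisense RNAs higher and 23 lower, 5 pairs the same way and, for all gene names called, 6354. The crossed pairing, chosen after seeing the data, gave 14 higher, 37 lower and 7044 in all.

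Changes of sign touched uncalled genes near 0. CEBPZ-AS1 (0.01) was at -0.0015 with DESeq2, -0.0102 with total counts, -0.0276 with TMM on protein-coding genes, -0.0614 with the RPKM filter, -0.0123 with a minimum of 50, -0.10 with the exon length and GC correction and -0.10 with the block added, and from -0.0619 to 0.0693 with a library left out. GABPB1-AS1 was at 0.0184 with that correction and 0.0230 with the block added. With a library left out, TMEM51 ranged from -0.20 to 0.0474 and CCDC41 from -0.0453 to 0.41.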
